A study of Homo sapiens with 4 samples.

Results

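The genes described here are 10 members of the fibroblast growth factor (FGF) signaling system, chosen by name from a table of 20372 genes. They are the 5 receptors *FGFR1*, *FGFR2*, *FGFR3*, *FGFR4* and *FGFRL1*, the 2 ligands *FGF1* and *FGF2*, the 1 adaptor *FRS2*, and the 2 FLRT proteins *FLRT2* and *FLRT3*. RNA was sequenced from TPC1 cells, an established human papillary thyroid carcinoma line with a CCDC6-RET fusion, after 6 h or 24 h with the RET inhibitor BLU6864, with 2 libraries at each time. All 4 libraries carried the inhibitor. Vehicle libraries were not analysed here, so each difference is between the 24 h and the 6 h libraries and not from the untreated state. Longer time on the inhibitor cannot be told apart from longer time in culture. The labels give a dose of 100 µM for every library and the methods give 100 nM. The labels mark the 24 h libraries, and not the 6 h libraries, as analysed again. Time therefore cannot be told apart from whatever that mark stands for. No source used here says whether the libraries of a time came from separate cultures, so P values measure the spread between libraries, which may be technical. The study asked which signaling routes return when RET stays blocked, and the comparison of 24 h with 6 h addresses the RNA side of that question for the FGF system.

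FGF receptors are tyrosine kinases of the cell surface. A secreted FGF bound together with heparan sulfate brings receptor molecules into contact, and the activated kinase phosphorylates FRS2, a membrane-anchored docking protein that passes the signal to GRB2 and SHP2 and from there to ERK. FGFRL1 binds FGFs but lacks a kinase domain. FLRT proteins are membrane proteins with leucine-rich repeats and fibronectin domains that bind FGF receptors as well as other guidance receptors.

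Genes of the system moved in both directions between 6 h and 24 h, but the falls were less firm than the rises. *FGF2*, *FGFR1* and *FGFR4* rose between 2.07-fold and 2.74-fold and kept their call under every alternative processing. *FGFR3* and *FLRT2* fell to 0.665 and 0.606 of their 6 h level. Both falls were at low counts, and their calls were lost in DESeq2 and in some fits that left out 1 library. *FGFRL1* and *FRS2* had log2 fold changes of 0.07 and 0.08 and were not called. *FGF1* had a log2 fold change of -0.77 at low counts and was called only by the adjusted P. *FGFR2* and *FLRT3* had at most 5 reads in any library and did not pass the filter on low counts.

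A gene was called when its log2 fold change was beyond 0.5 in either direction with an unadjusted P under 0.01 in edgeR's quasi-likelihood test. The study's methods give this cutoff for lower genes, and it was applied to higher genes as well, with their P taken as unadjusted. Of the 8 genes that passed the filter on low counts, 3 were called higher at 24 h, where 17.4% of the 12876 genes tested were, and 2 were called lower, where 17.7% were. With a Benjamini-Hochberg adjusted P under 0.05 and no cutoff on the fold, 3 were higher, against 33.0% of all genes tested, and 3 were lower, against 32.6%. Both 24 h libraries lay above both 6 h libraries for 4 of the 8 genes, against 41.0% of all genes, and below them for 3 genes, against 40.8%. The median log2 fold change of the 8 genes was 0.07 and that of all genes tested was 0.0029.

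**Figure D1:**
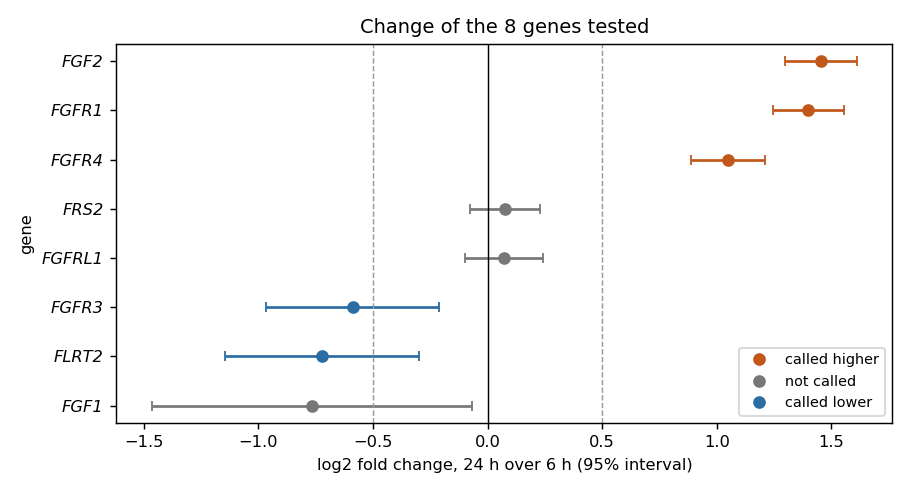
Log2 fold change of the 8 genes tested, 24 h over 6 h, on the horizontal axis, with bars for the 95% interval of edgeR's fit and dashed lines at the cutoff of 0.5 in each direction. *FGF2*, *FGFR1* and *FGFR4* lie at 1.46, 1.40 and 1.05 with intervals wholly above 0.5, *FRS2* and *FGFRL1* lie at 0.08 and 0.07, and the intervals of *FGFR3*, *FLRT2* and *FGF1* are wide and cross -0.5.

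*FGFR1* was the most abundant of the 4 kinase receptors. Its gene (ENSG00000077782) spans chromosome 8, 38268656 to 38326352, in hg19. Its reads numbered 2826 and 3094 at 6 h and 7594 and 8552 at 24 h. Both 24 h libraries were more than double either 6 h library. After normalization with the TMM method, which scales each library to the others, the level was 3010 ± 58.2 (SD, n = 2) at 6 h and 7944 ± 535 at 24 h. The log2 fold change was 1.40 with a standard error (SE) of 0.07 and an edgeR adjusted P of 4.27e-15. A larger rise was found for 488 of the genes tested, which is 3.79%. In bulk RNA such as this, a change in the number of cells that express a gene and a change in RNA per cell cannot be told apart.

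*FGFR4*, the receptor with the strongest tie to FGF19 in liver, rose less than *FGFR1*. The gene (ENSG00000160867; chromosome 5, 176513887 to 176525145) had 564 and 626 reads at 6 h and 1251 and 1290 at 24 h. The groups were well apart, with normalized counts of 605 ± 5.85 and 1251 ± 6.36 (SD, n = 2). The log2 fold change was 1.05 (SE 0.08), and the edgeR adjusted P was 6.85e-12. Each read on *FGFR4* was matched by 5.01 and 4.94 reads on *FGFR1* at 6 h and by 6.07 and 6.63 at 24 h. This ratio within a library does not depend on the scaling between libraries, and its values at the 2 times did not overlap. With 2 libraries against 2, an exact two-sided permutation test cannot give a P below 0.333, and it gave 0.333 here.

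*FGFR3*, a receptor known for its restraint of bone growth, went the other way. The gene (ENSG00000068078; chromosome 4, 1795034 to 1810599) had 90 and 104 reads at 6 h and 72 and 61 reads at 24 h. The counts were low, but the normalized counts of 98.5 ± 1.85 at 6 h and 65.6 ± 8.75 at 24 h (SD, n = 2) did not overlap. The log2 fold change was -0.59 (SE 0.18), with an unadjusted P of 0.00359 and an edgeR adjusted P of 0.00668. The call was lost in DESeq2 (unadjusted P = 0.052) and without the second 24 h library (log2 fold change -0.45), the first 6 h library (-0.61) or the second 6 h library (-0.57). Adjusted P ranged from 0.00265 to 0.098 over the alternatives.

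*FGFR2*, the receptor of many epithelia, was near the limit of detection. The gene (ENSG00000066468; chromosome 10, 123237848 to 123357972) had 2 and 5 reads at 6 h and 3 and 2 reads at 24 h. No change could be seen at this depth. *FGFRL1*, the receptor without a kinase (ENSG00000127418; chromosome 4, 1003724 to 1020685), had 671 and 724 reads at 6 h and 747 and 768 reads at 24 h. Normalized counts were 709 ± 21.0 and 746 ± 2.22 (SD, n = 2), and although the 24 h libraries were the higher ones, the log2 fold change of 0.07 had a 95% interval from -0.10 to 0.24, and the edgeR adjusted P was 0.453. That interval leaves out a change as large as that of *FGFR1* or *FGFR4*. The number of *FGFR1* reads for each *FGFRL1* read went from 4.21 and 4.27 at 6 h to 10.2 and 11.1 at 24 h.

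**Figure D2:**
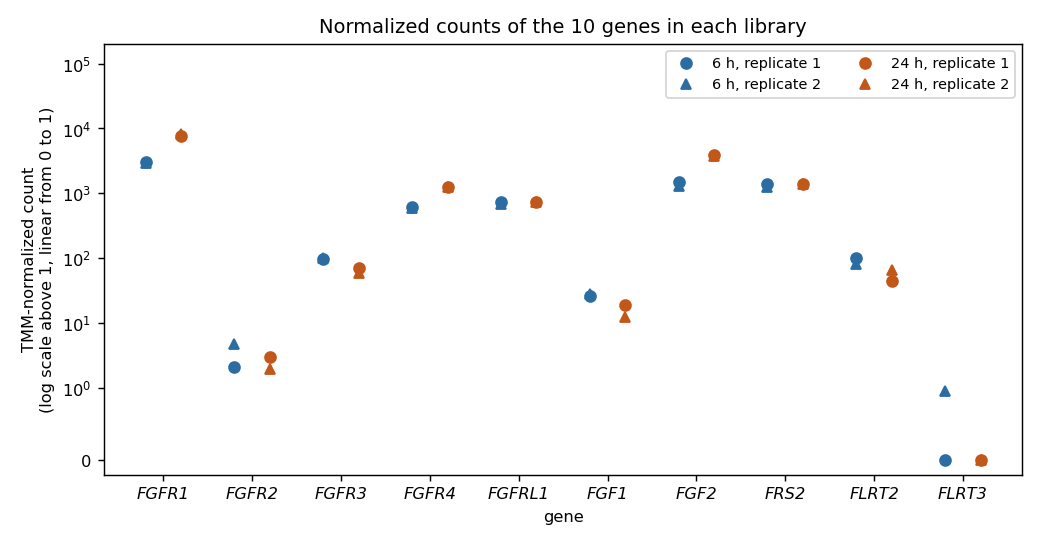
TMM-normalized count of the 10 genes in each library, on a vertical axis that is logarithmic above 1 and linear from 0 to 1, with circles and triangles for replicates 1 and 2. The 24 h points of *FGFR1*, *FGFR4* and *FGF2* lie above their 6 h points, those of *FGFR3*, *FGF1* and *FLRT2* lie below, and *FLRT3* has 1 point above 0.

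The mix of kinase receptors shifted toward *FGFR1*. Of the reads on *FGFR1* to *FGFR4* together, *FGFR1* took 81.2% (95% exact Clopper-Pearson interval 79.8 to 82.5) and 80.8% (79.5 to 82.0) in the 6 h libraries, of 3482 and 3829 reads. In the 24 h libraries it took 85.1% (84.4 to 85.9) of 8920 reads and 86.3% (85.7 to 87.0) of 9905 reads. The intervals of the 2 times did not meet. They cover counting error only, since reads without molecular identifiers are not independent molecules.

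*FGFR4* lost share although its own level rose. It held 16.2% (15.0 to 17.5) and 16.4% (15.2 to 17.6) at 6 h and 14.0% (13.3 to 14.8) and 13.0% (12.4 to 13.7) at 24 h. *FGFR3* went from 2.58% (2.08 to 3.17) and 2.72% (2.23 to 3.28) to 0.807% (0.632 to 1.01) and 0.616% (0.471 to 0.79). The *FGFR3* intervals of the 2 times were far apart, and those of *FGFR4* were apart by a small margin. These intervals too cover counting error only, and across all genes the libraries of a time differed by more than that. *FGFR2* held between 0.0202% and 0.131% in the 4 libraries, with intervals that overlapped between the times.

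The mean share changed by 4.76 percentage points for *FGFR1*, -2.75 for *FGFR4*, -1.94 for *FGFR3* and -0.0671 for *FGFR2*. The exact two-sided permutation P was 0.333 for each of these 4 shares, the smallest that 2 libraries against 2 allow. Longer transcripts give more reads, so shares were also taken after dividing each count by the length of the gene's canonical transcript in GENCODE v44. On that scale the *FGFR1* share was 70.7% at 6 h and 76.8% at 24 h, that of *FGFR4* 26.2% and 22.3%, and that of *FGFR3* 3.06% and 0.844%. The shares depend on the length used. With all exons of each gene merged, *FGFR1* held 54.5% at 6 h and 62.8% at 24 h. On the merged length *FGFR4* held 39.1% and 35.4%, and *FGFR3* 6.3% and 1.8%.

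**Figure D3:**
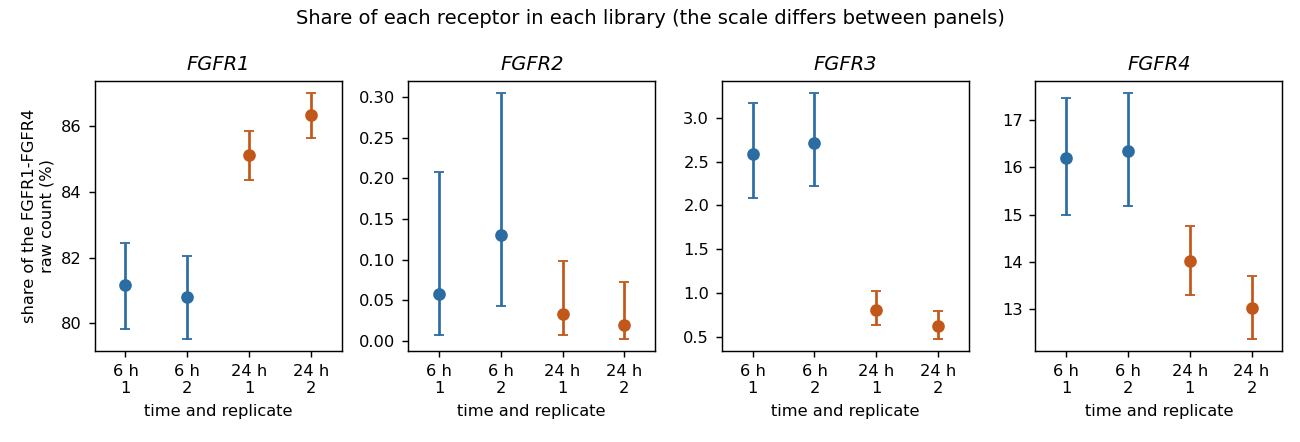
Share of *FGFR1*, *FGFR2*, *FGFR3* and *FGFR4* in their summed raw count, in percent, in each of the 4 libraries, with 95% exact Clopper-Pearson intervals and a scale of its own in each panel. *FGFR1* moves from 81% to between 85.1% and 86.3%, *FGFR3* and *FGFR4* move down, and the intervals of *FGFR2* overlap.

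The kinase receptors as a sum rose with *FGFR1*. Their normalized counts summed to 3759 and 3673 at 6 h and to 8887 and 9638 at 24 h, a ratio of the means of 2.49. The groups did not overlap, with an exact two-sided permutation P of 0.333. *FGFR1* made up 89.0% of the difference between the means. With *FGFRL1* in the sum the log2 ratio was 1.18 in place of 1.32.

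*FGF2*, basic FGF, a ligand of several FGF receptors, rose about as much as *FGFR1*, with the larger log2 fold change in the fit to all 4 libraries and the smaller one without the first 24 h library (1.46 against 1.48) or the second 6 h library (1.35 against 1.38). The gene (ENSG00000138685; chromosome 4, 123747863 to 123819391) had 1394 and 1361 reads at 6 h and 3888 and 3933 reads at 24 h. Normalized counts were 1405 ± 141 at 6 h and 3850 ± 32.7 at 24 h (SD, n = 2), and the groups were far apart. The log2 fold change was 1.46 (SE 0.08), and the edgeR adjusted P was 3.16e-15. A larger rise was found for 454 genes, 3.53% of those tested.

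The proportion of *FGF2* to *FGFR1* did not move beyond the spread between libraries. For each *FGFR1* read there were 0.493 and 0.44 *FGF2* reads at 6 h and 0.512 and 0.46 at 24 h. These ranges overlapped, with an exact two-sided permutation P of 0.667. *NUDT6*, a gene on the opposite strand known as an antisense partner of *FGF2*, shares 9540 bases with it in the coordinates of the table. *NUDT6* had 136 and 189 reads at 6 h and 118 and 158 reads at 24 h, few beside *FGF2*, and its log2 fold change was -0.28 (edgeR adjusted P = 0.116). Whether counting used the strand is not given in the sources used here, so reads in the shared stretch cannot be assigned with certainty.

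*FGF1*, acidic FGF, which binds every FGF receptor, was scarce. The gene (ENSG00000113578; chromosome 5, 141971743 to 142077617) had 24 and 29 reads at 6 h and 19 and 13 reads at 24 h. The normalized values did not overlap, but the log2 fold change of -0.77 had an SE of 0.34 and an unadjusted P of 0.0325, above the cutoff of 0.01. Its edgeR adjusted P was 0.0497. Without the first 24 h library the log2 fold change was -1.07, and without the second it was -0.50. Adjusted P ranged from 0.0378 to 0.336 over the alternatives. For each *FGF1* read there were 58.1 and 46.9 *FGF2* reads at 6 h and 205 and 303 at 24 h.

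*FRS2*, the docking protein for the receptor kinases, was not called. The gene (ENSG00000166225; chromosome 12, 69864129 to 69973562) had 1304 and 1312 reads at 6 h and 1400 and 1455 reads at 24 h. After normalization the ranges overlapped, at 1333 ± 105 and 1405 ± 14.9 (SD, n = 2). The log2 fold change was 0.08 with a 95% interval from -0.08 to 0.23 and an edgeR adjusted P of 0.368. The number of *FGFR1* reads for each *FRS2* read was 2.17 and 2.36 at 6 h and 5.42 and 5.88 at 24 h.

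*FLRT2*, the FLRT protein that was expressed, fell at low counts. The gene (ENSG00000185070; chromosome 14, 85996488 to 86095034) had 93 and 86 reads at 6 h and 45 and 67 reads at 24 h. Normalized counts of 91.5 ± 12.6 and 55.0 ± 14.4 (SD, n = 2) did not overlap. The log2 fold change was -0.72 (SE 0.21), with an unadjusted P of 0.0017 and an edgeR adjusted P of 0.00337. The call was lost in DESeq2 (unadjusted P = 0.0278), without the first 24 h library (log2 fold change -0.47) and without the first 6 h library (-0.58). Adjusted P ranged from 0.000459 to 0.0812 over the alternatives.

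*FLRT3*, the member of the family first tied to FGF receptors in frog embryos, was not detected beyond a single read. The gene (ENSG00000125848; chromosome 20, 14303634 to 14318262) had 0 and 1 reads at 6 h and 0 reads in both 24 h libraries. A count of 0 allows up to 3 reads in a library. All 14629 bases of *FLRT3* lie within *MACROD2*, which had 1279 and 1394 reads at 6 h and 2081 and 1947 at 24 h.

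Levels can be compared between genes only per length, here as normalized counts per kilobase of canonical transcript. At 6 h the order was *FGFR1* (528 ± 10.2, SD, n = 2), *FGF2* (211 ± 21.2), *FGFRL1* (208 ± 6.17), *FRS2* (197 ± 15.6), *FGFR4* (196 ± 1.89), *FGFR3* (22.9 ± 0.431), *FGF1* (7.17 ± 0.361), *FLRT2* (2.71 ± 0.375), *FGFR2* (0.752 ± 0.403) and *FLRT3* (0.0964 ± 0.136). *FGF2*, *FGFRL1*, *FRS2* and *FGFR4* were neighbors whose libraries overlapped at 6 h. The other neighbors were apart.

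At 24 h these 4 genes had come apart. The order was *FGFR1* (1394 ± 93.9), *FGF2* (579 ± 4.91), *FGFR4* (404 ± 2.06), *FGFRL1* (219 ± 0.651) and *FRS2* (208 ± 2.21), and no neighbors overlapped. *FGFR4* had moved from rank 5 to rank 3. Below them came *FGFR3* (15.2 ± 2.03), *FGF1* (4.21 ± 1.19), *FLRT2* (1.63 ± 0.428) and *FGFR2* (0.534 ± 0.159). The order depends on the length used. With all exons of the gene merged, *FGFR1* had 175 at 6 h and 462 at 24 h per kilobase, *FGF2* ranked first at both times, and *FGFR1* ranked 3 at 6 h and 2 at 24 h. The canonical *FLRT2* transcript is long, at 33681 bases in GENCODE v44, which holds its level per length low. Reads were counted in hg19, so the length that was counted may differ.

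**Figure D4:**
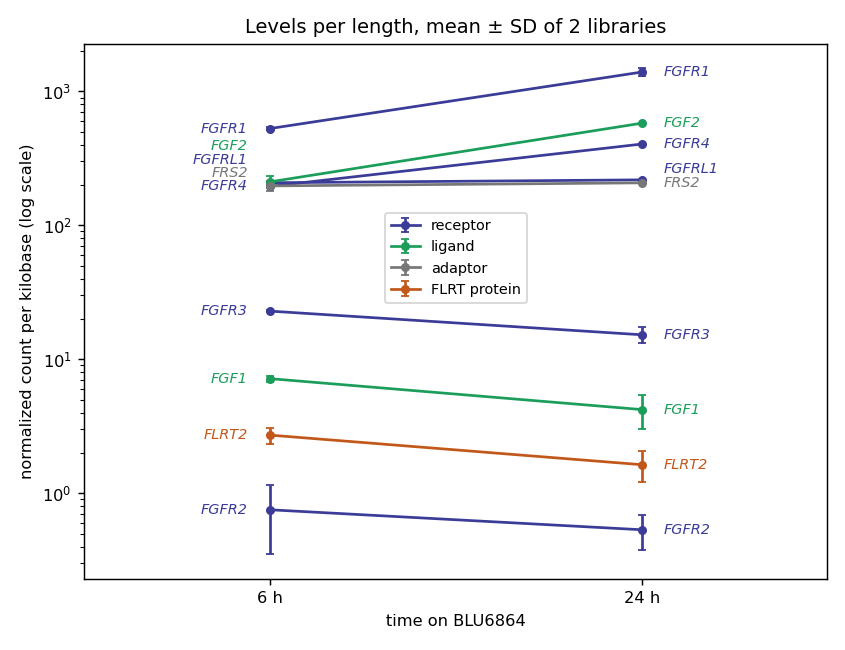
Normalized counts per kilobase of canonical transcript at 6 h and 24 h, on a logarithmic vertical axis, with points for the mean and bars for the SD of 2 libraries. *FLRT3*, at 0 at 24 h, is not drawn. *FGF2*, *FGFRL1*, *FRS2* and *FGFR4* lie between 196 and 211 at 6 h and spread to between 208 and 579 at 24 h, and *FGFR1* is highest at both times.

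The sequence around the start of transcription is shown for a pair of genes that rose and a pair that fell. RefSeq sequences of GRCh38.p14, each 300 bases long with 250 before the start and 50 after it, were used. Where RefSeq gave several starts, the one nearest the canonical transcript was taken. The sequences, matched by symbol, cover the 9 genes other than *FGFR1*, for which 0 were found. They are written 5′ to 3′ in lower case, and capitals mark the GC box GGGCGG or its reverse complement CCGCCC, the core of the sites bound by Sp1. The stretches are chr4:122826581-122826880 for *FGF2*, chr5:177086665-177086964 for *FGFR4*, chr4:1793043-1793342 for *FGFR3* and chr14:85529894-85530193 for *FLRT2*, all on the plus strand of that build.
FGF2: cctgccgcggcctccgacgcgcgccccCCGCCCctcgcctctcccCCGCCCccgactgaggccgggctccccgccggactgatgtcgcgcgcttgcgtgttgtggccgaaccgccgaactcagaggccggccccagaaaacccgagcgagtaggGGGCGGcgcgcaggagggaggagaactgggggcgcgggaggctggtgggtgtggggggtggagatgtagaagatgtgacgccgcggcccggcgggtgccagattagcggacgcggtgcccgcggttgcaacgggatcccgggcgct
FGFR4: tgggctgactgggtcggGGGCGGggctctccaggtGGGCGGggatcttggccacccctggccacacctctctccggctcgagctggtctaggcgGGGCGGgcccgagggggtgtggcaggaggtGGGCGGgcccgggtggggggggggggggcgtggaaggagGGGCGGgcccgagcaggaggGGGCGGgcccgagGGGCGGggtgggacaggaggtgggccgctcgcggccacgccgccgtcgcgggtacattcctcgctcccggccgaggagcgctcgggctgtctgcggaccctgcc
FGFR3: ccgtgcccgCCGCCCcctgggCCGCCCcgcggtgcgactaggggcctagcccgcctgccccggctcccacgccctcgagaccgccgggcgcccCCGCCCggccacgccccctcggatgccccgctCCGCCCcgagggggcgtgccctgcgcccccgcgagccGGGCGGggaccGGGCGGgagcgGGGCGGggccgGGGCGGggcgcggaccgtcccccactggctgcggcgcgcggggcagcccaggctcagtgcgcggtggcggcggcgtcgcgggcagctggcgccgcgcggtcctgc
FLRT2: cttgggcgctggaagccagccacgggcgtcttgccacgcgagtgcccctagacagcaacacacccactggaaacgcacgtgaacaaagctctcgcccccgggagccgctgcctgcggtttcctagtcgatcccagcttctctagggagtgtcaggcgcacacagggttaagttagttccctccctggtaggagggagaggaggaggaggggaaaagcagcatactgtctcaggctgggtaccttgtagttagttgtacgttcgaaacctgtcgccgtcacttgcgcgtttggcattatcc

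*FGFR4*, which rose, held 7 GC boxes and *FGF2* 3, whereas *FGFR3*, which fell, held 8 and *FLRT2* none. The part of GC boxes in these changes was not tested. The calls of *FGFR3* and *FLRT2* were lost in DESeq2. GC content was 78.7% for *FGFR4*, 74.7% for *FGF2*, 86.3% for *FGFR3* and 59.0% for *FLRT2*, against a median of 58.7% over 34796 distinct RefSeq promoter sequences. All promoters include several starts of some genes, whereas each gene here had 1. A GC box was present in 7 of the 9 promoters of this group and in 44.9% of all promoters. *FGFRL1* and *FRS2*, which were not called, held 4 and 3, *FGFR2* held 5, *FGF1* held 1, and *FLRT3* none. The *FGFRL1* window was set on a start 838 bases from that of the canonical transcript, so it does not cover the canonical start. The other windows were set on the canonical start.

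Few of these windows held the other motifs searched. The ETS core CCGGAA, searched on both strands like the other motifs, was found in 1 of the 9, *FRS2*, and in 17.2% of all promoters. The AP-1 site TGAGTCA or TGACTCA was found in 0 of 9 and in 4.96% of all, and the CRE site TGACGTCA in 0 of 9 and in 1.84% of all. The E-box CACGTG, a site for MYC among other factors, was found in *FGFRL1* and *FLRT2* and in 7.2% of all promoters. The letters TATAAA were found in 0 of 9 and in 11.6% of all. Matches on either strand were counted once per position, and 2 pairs of matches overlapped. A match describes the letters of the window and is no evidence that a factor was bound.

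The 3 genes whose pattern over the 4 libraries was most like that of *FGFR1* were *PTPRG*, a receptor tyrosine phosphatase, *ACTN1*, an actin cross-linker, and *FAM20C*, a kinase of the secretory pathway. Likeness was the Euclidean distance between centred log2 normalized counts, with 0.5 added, over the 4 libraries, among 5577 genes with a mean normalized count of at least 1000. The distances were 0.0577, 0.0591 and 0.0605. Their log2 fold changes were 1.38, 1.35 and 1.40, beside 1.40 for *FGFR1*, a closeness that follows from how they were picked. *PTPRG* had 1120 and 1162 reads at 6 h and 2891 and 3264 at 24 h.

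Most of the wider FGF family had few reads or none. Of 22 FGF ligand genes, 7 passed the filter on low counts, and 10 had at most 3 reads in every library. *FGF2* and *FGF12* were called higher, where 17.4% of all genes tested were, and none lower, where 17.7% were. *FGF12*, which belongs to the intracellular FGFs that act on sodium channels and not through FGF receptors, had 56 and 45 reads at 6 h and 95 and 115 at 24 h, a rise of 1.01 on the log2 scale (edgeR adjusted P = 9.18e-05). By adjusted P alone *FGF5* was also higher (0.20) and *FGF11* and *FGF1* lower (-0.40 and -0.77). *FGF5*, a secreted ligand known for its part in the hair cycle, had 603 and 732 reads at 6 h and 759 and 819 at 24 h, so it and *FGF2* were the secreted ligands with more than 100 reads in every library. The median of the 7 tested ligands was -0.40.

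Among co-receptors and carriers of FGFs, 4 of 9 genes were tested and none was called in either direction, where 17.4% of all genes tested were called higher and 17.7% lower. *KL* and *KLB*, the Klotho co-receptors that endocrine FGFs need, had at most 10 reads in any library. *CDH2*, N-cadherin, which binds FGFR1, had 1446 and 1551 reads at 6 h and 1890 and 2149 at 24 h and was higher by adjusted P (log2 fold change 0.38, edgeR adjusted P = 5.48e-05), as was *ANOS1*, encoding anosmin-1, at 18 reads or fewer (1.18, edgeR adjusted P = 0.0249). The median of this list was 0.42.

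Of 12 adaptors and effectors around the receptors, all were tested, 2 were called higher, near the 17.4% of all genes tested, and none lower, where 17.7% were, and the median was 0.04. *SHC1*, an adaptor that links receptor kinases to RAS, rose by 0.64 on the log2 scale (edgeR adjusted P = 3.55e-08), and *PLCG1*, the phospholipase that docks directly on FGF receptors, by 0.61 (edgeR adjusted P = 1.93e-08). *PTPN11*, which encodes SHP2, was higher by adjusted P (0.40) and *CRKL* lower (-0.37). *GRB2*, *GAB1*, *SOS1*, *SOS2*, *FRS3*, *CRK* and *CBL* were called by neither rule, like *FRS2*.

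Of 9 feedback inhibitors of the pathway, 8 were tested, 4 were called higher, where 17.4% of all genes tested were, and none lower, where 17.7% were, with a median of 0.57. They were *SPRY2* (log2 fold change 1.46), *SPRY1* (1.23), *IL17RD* (0.86), a membrane antagonist of FGF signaling also called SEF, and *SPRED2* (0.73). *SPRY2* had 399 and 465 reads at 6 h and 1220 and 1237 at 24 h. The study picked *SPRY1* and *SPRY2* from these treatments among genes that fell under BLU6864 and came back later, so their direction is no independent evidence. By adjusted P alone *SPRY4* (0.40) and *SPRED1* (0.35) were also higher, and *DUSP6*, the ERK phosphatase, was lower (-0.49, edgeR adjusted P = 2.68e-06). *DUSP6* had 1524 and 1606 reads at 6 h and 1199 and 1107 at 24 h, opposite in direction to *SPRY2*, and was called lower with library size alone (-0.53), without the first 24 h library (-0.56) or without the second 6 h library (-0.54). *SPRY4* was called higher without the second 24 h library (0.50).

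Of 9 genes known to respond to ERK, all tested, 2 were called higher and 2 lower, near the 17.4% and 17.7% of all genes tested, with a median of 0.05. *MYC* had a log2 fold change of 2.51 and *CCND1*, cyclin D1, one of 0.73. *FOS*, an immediate early gene and part of AP-1, had one of -1.75, and *PHLDA1* one of -0.71. Of the ETS factors induced by FGF, *ETV4* was lower by adjusted P (-0.43) and was called lower without the first 24 h library (-0.54) or without the second 6 h library (-0.66), while *ETV1* (0.05) and *ETV5* (0.15) were called by neither rule.

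Of 12 genes of the FLRT family and its partners, 8 were tested, none was called higher, where 17.4% of all genes tested were, and 2 were called lower, where 17.7% were, *FLRT2* and *RND1*, with a median of 0.13. With DESeq2 1 was called lower. *RND1*, whose product binds FLRT3, had 78 and 92 reads at 6 h and 29 and 37 at 24 h (log2 fold change -1.41, edgeR adjusted P = 3.37e-06). The netrin receptors *UNC5B* (0.36) and *UNC5C* (0.27) and the latrophilin *ADGRL1* (0.20), which bind FLRT proteins outside the cell, were higher by adjusted P, and *ROBO1* (-0.19) was lower. *FLRT1* had at most 5 reads in any library.

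**Figure D5:**
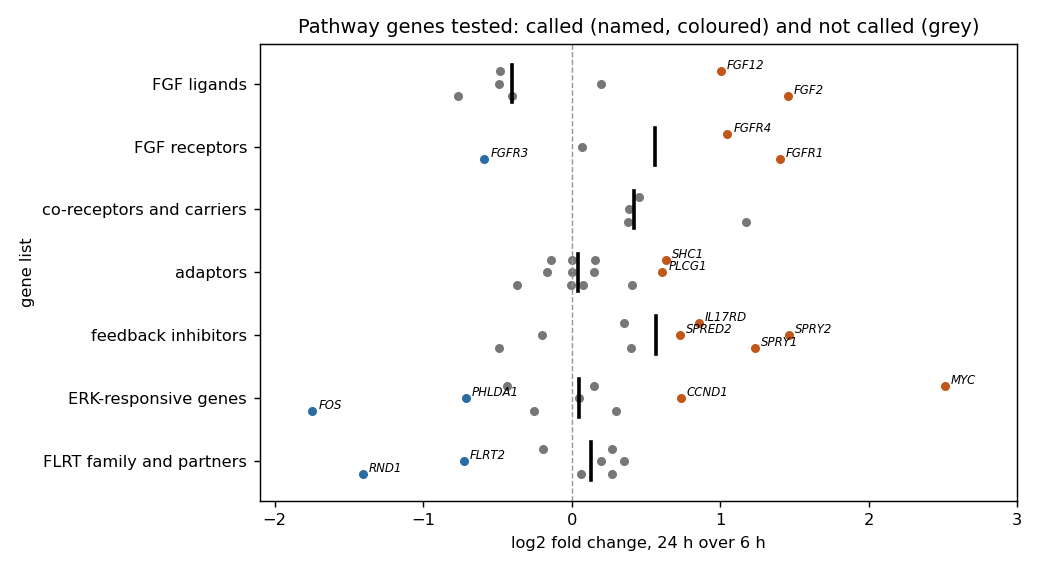
Log2 fold change, 24 h over 6 h, of the tested genes of 7 lists around the FGF pathway, with a black line at the median of each list and a dashed line at the median of all genes tested. Called genes are named, with *MYC* at 2.51 farthest to the right and *FOS* at -1.75 farthest to the left, and the 4 called feedback inhibitors lie between 0.73 and 1.46.

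The libraries held between 23917056 and 27457040 counted reads. Thyroid identity rested on *PAX8*, at between 19124 and 22978 reads, with *FOXE1* called higher (log2 fold change 0.84) and *TG* called lower (-1.09), while *NKX2-1* and *TSHR* had 0 reads in every library. Of 5 epithelial markers, *KRT8* had between 1720 and 1811 reads, *KRT18* between 856 and 1185, *KRT19* was called lower (log2 fold change -1.59), and *EPCAM* and *CDH1* had at most 11 reads. Markers of other cell types moved with time. The summed normalized counts of 3 endothelial markers went from between 507 and 542 at 6 h to between 26.3 and 47.8 at 24 h. Nearly all of that sum was *KDR*, and *CDH5* had at most 1 read. *KDR* and *VWF*, the latter at 16 reads or fewer, were called lower, where 17.7% of all genes tested were. The sums of 6 fibroblast markers went from between 571 and 591 to between 185 and 230. Nearly all of them was *PDGFRB* (log2 fold change -1.48) and *COL1A1* (-1.57), the 2 called lower, with *COL1A2* and *COL3A1* at 0. The sums of 6 white blood cell markers went from between 4635 and 4858 to between 2674 and 2744. Almost all of them was *CD68*, which was called lower, while *CD14* was called higher (log2 fold change 0.95). *CD3E* had at most 1 and *PTPRC* at most 5 reads. The part of these markers in the changes of the FGF genes was not tested.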

How the data were processed

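Reads of 4 TPC1 libraries were aligned by the authors with STAR (version 2.3 in the submitters' notes, a later one in the methods) to hg19, and the raw count of reads per gene was deposited. The labels give single-end reads of 50 bases and the methods paired-end reads of 100 cycles. The authors also deposited a normalized signal (count over DESeq2 size factor) and their own comparison as log2 fold changes, a Wald score and p-values, none of which was used here. Counts were filtered with filterByExpr, TMM-normalized and tested with edgeR 4.0.16 in R 4.3.3, time being the single factor, with Benjamini-Hochberg adjustment over 12876 genes. SE was derived from the F statistic. The procedure was run on data simulated from its own fitted dispersions with few genes changed. Many genes changed in the real data, so that run does not measure the error here. Normalized counts are scaled to the mean library. The lengths came from GENCODE v44, on GRCh38, and may differ from those of the genes as counted in hg19. Alternatives were DESeq2 1.42.0, upper quartile scaling, scaling by library size alone, a filter of 10 counts in every library or none, a block on the replicate number, and the omission of each library. Same-numbered deviations correlated at 0.0691, and the libraries of a time differed by more than sampling noise (chi-square per degree of freedom 7.87 at 24 h and 10.3 at 6 h). Named were the 10 genes, for each list the called genes (at most 4) and those a sentence on a family needed, overlapping genes, and the 3 genes most like *FGFR1*. *FGF5*, *CDH2*, *ANOS1*, *DUSP6* and others called only by adjusted P were named after their values were seen. The members and lists were chosen with earlier results of these data known. Plots were drawn with matplotlib 3.10.9. The values of some single marker genes are not reported here.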

Additional observations from a re-analysis of the deposited data

How the results depend on the processing

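The rises of *FGFR1*, *FGFR4* and *FGF2* kept their direction and call under all 10 alternatives, at log2 fold changes of 1.34 to 1.48, 1.01 to 1.08 and 1.35 to 1.56. The calls of *FGFR3* (-0.59) and *FLRT2* (-0.73) were lost with DESeq2, and leaving out 1 library gave -0.72 to -0.45 and -1.01 to -0.47. *FRS2*, not called, ranged from -0.0064 to 0.16 on leaving out 1 library and crossed 0 without the second 6 h library. *FGFR2* and *FLRT3* had no fitted value in the main comparison and *FGF1* was not called under any alternative with the fold cutoff. The number of the 10 genes called lower was 0 with DESeq2 and 0 to 1 on leaving out 1 library. Of the receptors, the number lower was 0 with DESeq2 and 0 to 1 on leaving out 1 library, and of the FLRT list 1 with DESeq2 and 1 to 2. The ligands lower were 0 to 1 on leaving out 1 library, the 1 being *FGF14* without the second 6 h library, and the feedback inhibitors lower were 1 with library size alone and 0 to 1 on leaving out 1 library, the 1 being *DUSP6*. By adjusted P under 0.05, 4247 genes (33.0% of those tested) were higher and 4196 (32.6%) lower. Higher and lower were 3 and 2 of 7 ligands, 2 and 0 of 4 co-receptors and carriers, and 3 and 1 of 12 adaptors. They were 6 and 1 of 8 feedback inhibitors, 3 and 4 of 9 ERK-responsive genes, and 3 and 3 of 8 FLRT-list genes. The change in share was 11.3, -1.57 and -1.15 percentage points for *FGFR1*, *FGFR3* and *FGFR4* with *FGFRL1* in the total. Per length of canonical transcript it was 6.14, -2.22 and -3.85. The log2 ratio of the receptor sum was 1.18 with *FGFRL1* added. The cause of these differences was not tested.

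Replicate numbers were shared between the times, but same-numbered libraries did not deviate together, so they were not treated as pairs. With the replicate block 2283 genes were higher and 2313 lower, against 2238 and 2278 without it, and 3 of the 10 genes were higher and 2 lower, with log2 fold changes of 1.40 for *FGFR1*, 1.05 for *FGFR4*, 1.46 for *FGF2*, -0.59 for *FGFR3* and -0.72 for *FLRT2*. No call of the 10 genes or of the lists changed with the block. With 2 libraries a time, the spread of a single gene is judged mostly from all genes together, and outliers could not be looked for. Genes under about 100 reads, *FGFR3*, *FLRT2* and *FGF1* among them, carry the widest errors.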
